A study of Homo sapiens with 16 samples.

Results

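The proteasome genes of human embryonic stem cells were examined for how strongly their mRNAs were bound by translating ribosomes. Genes were taken by symbol: PSMA, PSMB, PSMC, PSMD, PSME, PSMF or PSMG followed by a digit, with a translation ratio in every culture. Of 28252 genes in the deposited table, 49 symbols had these letters, and 46 of them had a ratio in all 8 cultures. One of the 46, PSMC3IP, encodes a recombination factor named for its binding to PSMC3 and was kept out of all counts, which leaves 45 proteasome genes. The testis- and thymus-associated core genes PSMA8 and PSMB11 had no ratio in any culture, and the inducible core gene PSMB9 had one in 7 cultures.

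The cells were H9, an established line of human embryonic stem cells, grown without feeder cells. They were treated with control siRNA or with siRNA to OCT4 (siOCT4), the transcription factor also called POU5F1 that maintains pluripotency, and were kept at 20% or 1% oxygen. Each of the 4 groups had 2 cultures, and each culture gave an RNA-seq library of total RNA and an RNC-seq library of the RNA that was pulled down with ribosome-nascent chain complexes (RNC). The translation ratio is the RNC value of a gene over its RNA value, as the authors computed it, so it has no unit. It can rise through more bound RNA or less total RNA, and the depth of each library is unknown. The ratio also gives no level of the OCT4 transcript, so the knockdown was not checked here. Separate growth of the 2 cultures in a group is not stated, so p-values measure only the spread between these samples.

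The proteasome degrades proteins tagged with ubiquitin. Its core particle is a stack of rings in which the outer alpha rings form the gate and the inner beta rings hold the proteolytic sites. The regulatory particle caps the core: its base contains a ring of ATPases that unfolds substrates, and its lid removes the ubiquitin chain. Dedicated chaperones assemble each particle, and alternative activators can cap the core instead. Embryonic stem cells are known for high proteasome activity.

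Among the 45 genes, 16 encoded core subunits and 17 encoded subunits of the regulatory particle. The core comprised 7 alpha subunits (PSMA1 to PSMA7), the 3 beta subunits with active sites (PSMB5, PSMB6, PSMB7), 4 structural beta subunits (PSMB1 to PSMB4) and 2 interferon-inducible beta subunits (PSMB8, PSMB10). The regulatory particle comprised 6 ATPases (PSMC1 to PSMC6), 3 further base subunits (PSMD1, PSMD2, PSMD4) and 8 lid subunits (PSMD3, PSMD6, PSMD7, PSMD8, PSMD11, PSMD12, PSMD13, PSMD14). The other 12 were 3 chaperones of the base (PSMD5, PSMD9, PSMD10), 4 activators (PSME1 to PSME4), the regulator PI31 (PSMF1) and 4 chaperones of the core (PSMG1 to PSMG4).

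Base composition is shown first because the ratio followed it closely in 2 of the 4 groups. The middle 30 codons of 4 coding sequences are given below 5′ to 3′, in lower case, with the last base of a codon in capitals where it is G or C. They pair a core with a regulatory-particle mRNA of like GC content over the whole coding sequence, once at a low and once at a higher content.
PSMA3: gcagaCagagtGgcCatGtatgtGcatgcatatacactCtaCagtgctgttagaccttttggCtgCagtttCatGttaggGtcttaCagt
PSMD12: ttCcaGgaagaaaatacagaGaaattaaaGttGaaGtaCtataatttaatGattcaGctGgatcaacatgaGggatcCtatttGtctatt
PSMB5: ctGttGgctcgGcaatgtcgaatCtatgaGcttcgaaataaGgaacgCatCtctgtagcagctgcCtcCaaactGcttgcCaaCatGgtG
PSMD3: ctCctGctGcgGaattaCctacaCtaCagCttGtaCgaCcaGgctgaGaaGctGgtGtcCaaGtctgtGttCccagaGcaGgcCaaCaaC
The stretch of PSMA3, an alpha subunit, lies in exons 5 and 6 at chr14:58257931-58260969, plus strand, and has 13 of 30 codons ending in G or C. That of the lid subunit PSMD12 lies in exons 6 and 7 at chr17:67347182-67347356, minus strand, and has 13 of 30. PSMB5, the beta subunit that cuts after hydrophobic residues, is shown from exon 2 at chr14:23033435-23033524, minus strand, with 15 of 30. The lid subunit PSMD3 is shown from exon 5 at chr17:39989809-39989898, plus strand, with 25 of 30. Positions and exons are those of GENCODE 29 on GRCh38, with every base shown in a coding exon; the spans of PSMA3 and PSMD12 include an intron. Over their whole coding sequences PSMA3 and PSMD12 had 40.4% and 40.6% GC, and PSMB5 and PSMD3 had 56.4% and 56.9% GC. The pairs were less alike at the last base of the codons. Of all codons 31.8% and 42.5% ended in G or C in PSMA3 and PSMD12, and 59.7% and 71.9% in PSMB5 and PSMD3. The whole transcripts of PSMB5 and PSMD3 had 51.9% and 58.6% GC.

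The ratios of the 45 genes were spread widely in 2 of the 4 groups and narrowly in the other 2. In control cells at 20% oxygen the mean ratios ran from 0.375 for PSMD3 to 7.85 for PSMA4, a 20.9-fold range, and 17 genes were above 2. In control cells at 1% oxygen they ran from 0.550 for PSMG4 to 1.65 for PSMD10. In siOCT4 cells at 20% oxygen they ran from 0.757 for PSMD2 to 1.55 for PSMG1. The spread returned in siOCT4 cells at 1% oxygen, from 0.330 for PSMB10 to 4.10 for PSME4, a 12.4-fold range with 11 genes above 2.

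**Figure D1:**
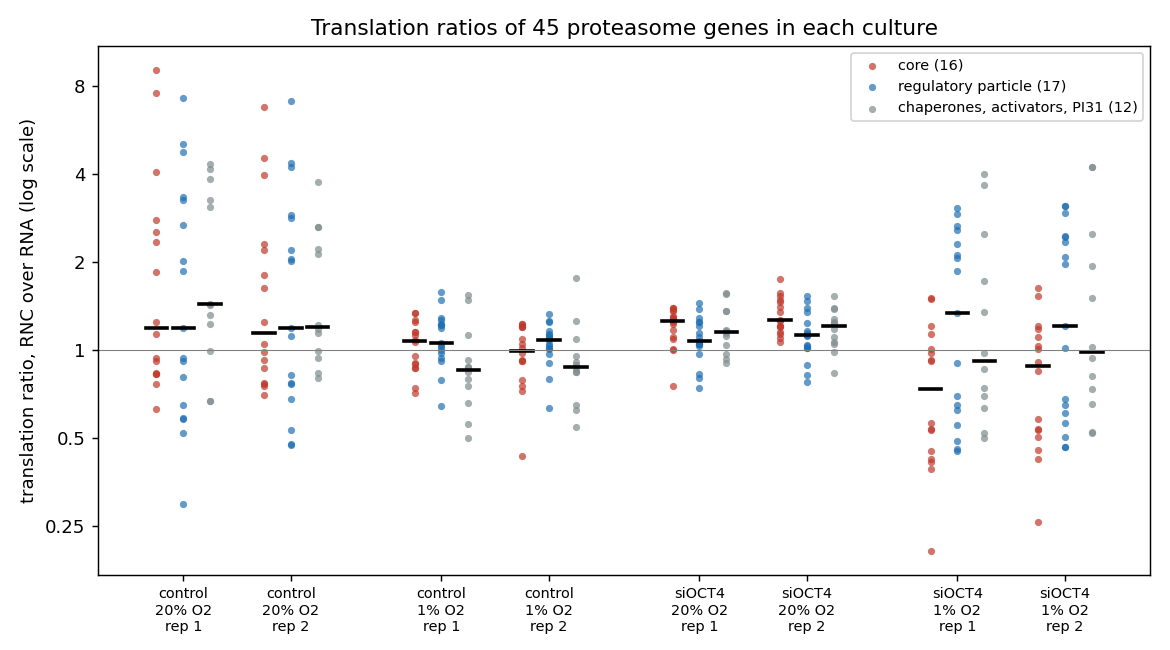
Translation ratio (RNC over RNA, log scale) of each of 45 proteasome genes in each of 8 cultures, 1 point per gene, with black bars at the medians of 16 core genes, 17 regulatory-particle genes and 12 others. The points spread widely in control cells at 20% oxygen and in siOCT4 cells at 1% oxygen, where the core medians (0.738 and 0.878) lie below those of the regulatory particle (1.34 and 1.20).

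Over the 45 genes, Spearman's rho between the mean ratio and the GC content of the transcript was -0.787 in control cells at 20% oxygen and -0.793 in siOCT4 cells at 1% oxygen. It was -0.208 in control cells at 1% oxygen and -0.399 in siOCT4 cells at 20% oxygen. These are descriptions over genes that share libraries. The same held over all genes: GC content accounted for 71.7% and 65.0% of the variance of the log2 ratio in both control cultures kept at 20% oxygen and for 64.2% and 66.3% in the siOCT4 cultures at 1% oxygen. In the other 4 cultures it accounted for 0.0986% to 14.3%. Its part in the changes of single genes was not tested, so each comparison is given on the ratios as deposited and on GC-corrected ratios, the residuals from a smooth curve on transcript GC content in each culture.

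The alpha subunits, which gate the core, carried the highest core ratios of control cells at 20% oxygen. For PSMA4 the control cultures at 20% oxygen gave ratios of 9.07 and 6.80, followed by 0.742 and 0.753 in control at 1%, 1.37 and 1.40 in siOCT4 at 20%, and 1.50 and 1.62 in siOCT4 at 1%. PSMA3 had 7.56 and 4.54, then 1.08 and 1.20, 1.39 and 1.49, and 1.13 and 1.21 in the same order of groups. PSMA2 had 4.08 and 3.96, then 1.27 and 1.21, 1.39 and 1.56, and 1.00 and 0.908. For these 3 genes the first group stood apart from the other 3, and siOCT4 cells at 1% oxygen did not regain the high values. The median of the 7 alpha subunits was 2.78 and 2.31 in control at 20%, 1.08 and 1.01 in control at 1%, 1.36 and 1.46 in siOCT4 at 20%, and 1.13 and 1.18 in siOCT4 at 1%. PSMA7, with 53.1% transcript GC the only alpha subunit above 50%, went another way, with 0.940 and 1.05, 1.15 and 0.973, 1.30 and 1.46, and 0.535 and 0.535.

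The 3 catalytic beta subunits were lowest in siOCT4 cells at 1% oxygen. PSMB5 had ratios of 0.765 and 0.771 in control at 20%, 1.07 and 0.792 in control at 1%, 1.01 and 1.07 in siOCT4 at 20%, and 0.391 and 0.424 in siOCT4 at 1%. PSMB6, which cuts after acidic residues, had 1.13 and 0.987, 1.13 and 1.05, 1.29 and 1.27, and 0.534 and 0.579. PSMB7, which cuts after basic residues, had 0.825 and 0.869, 1.34 and 1.09, 0.999 and 1.14, and 0.562 and 0.534. In all 3 genes both siOCT4 cultures at 1% oxygen lay below the other 6 cultures. Of the structural beta subunits, PSMB3 had 0.830 and 0.754, 0.954 and 0.916, 1.17 and 1.25, and 0.413 and 0.504. PSMB4 ended at 0.450 and 0.456 in siOCT4 at 1%, below its range of 0.702 to 1.15 in the other 6 cultures. PSMB1 and PSMB2, with 48.3% and 46.4% transcript GC, ended higher, at 0.914 and 1.03 and at 0.976 and 1.10.

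The inducible beta subunits replace the catalytic ones in the immunoproteasome and were measured with large error. PSMB8 had ratios of 0.628 and 0.762 in control at 20%, 0.869 and 0.726 in control at 1%, 0.751 and 1.75 in siOCT4 at 20%, and 0.206 and 0.849 in siOCT4 at 1%. PSMB9 had 0.741 and 0.978, 1.25 and 0.567, 2.48 and 0.912, and in siOCT4 at 1% only 1 ratio, 1.38. PSMB10 had 0.914 and 0.925, 0.713 and 0.432, 1.28 and 1.10, and 0.423 and 0.257. Values that at least 3 genes of a culture share, a mark of small read numbers, occurred in 4 cultures of PSMB9, 2 of PSMB8 and 1 of PSMB10. The immune-cell markers PTPRC, CD74 and HLA-DRA, listed because immune cells express this set, had a ratio in all 8 cultures for 1 of 3 genes.

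The ATPases of the base ranged from 36.8% to 56.2% transcript GC, and their ratios followed it. PSMC6, with 36.8% transcript GC, had ratios of 7.26 and 7.09 in control at 20%, 1.22 and 1.25 in control at 1%, 1.45 and 1.46 in siOCT4 at 20%, and 2.57 and 2.46 in siOCT4 at 1%. PSMC2, at 38.9% GC, had 3.34 and 2.90, 1.02 and 1.16, 1.25 and 1.39, and 3.05 and 2.93. Both were therefore high again in siOCT4 cells at 1% oxygen, PSMC2 with a log2 difference of -0.06 ± 0.15 from control cells at 20% (SE, adjusted p = 0.803). PSMC4, at 55.2% GC, had 0.647 and 0.530, 0.936 and 1.02, 1.08 and 1.13, and 0.695 and 0.681, the mirror of the AT-rich ATPases. PSMC3 was likewise lower in control at 20% and siOCT4 at 1% than in the other groups. It had 0.580 and 0.680, 0.997 and 0.899, 0.971 and 1.03, and 0.552 and 0.564. The 2 ATPases of middle GC content lay between: PSMC1, at 48.7%, had 1.86 and 2.05, 1.22 and 1.10, 1.14 and 1.24, and 1.86 and 2.34. PSMC5, at 52.1%, stayed between 0.903 and 1.49 in all 8 cultures.

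Among the other base subunits, the scaffold PSMD1 had ratios of 2.02 and 2.01 in control at 20%, 0.978 and 1.01 in control at 1%, 0.804 and 0.819 in siOCT4 at 20%, and 2.93 and 3.10 in siOCT4 at 1%. The ubiquitin receptor PSMD4 had 0.584 and 0.768, 1.57 and 1.11, 1.05 and 1.02, and 0.646 and 0.647. PSMD2, the other large scaffold, stayed between 0.474 and 0.795 in all 8 cultures. Thus PSMD1 was high and PSMD2 and PSMD4 low in the same 2 groups.

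In the lid, PSMD14, the deubiquitinase that cleaves the chain off the substrate, had ratios of 5.07 and 4.24 in control at 20%, 1.29 and 1.26 in control at 1%, 1.25 and 1.35 in siOCT4 at 20%, and 2.31 and 2.43 in siOCT4 at 1%. PSMD12 had 4.74 and 4.36, 0.913 and 1.08, 1.21 and 1.15, and 2.66 and 3.10. PSMD6 had 3.26 and 2.83, 0.642 and 0.632, 1.10 and 1.16, and 2.11 and 1.97. These 3 lid subunits were above 1.9 in the 2 groups with a steep GC trend and below 1.4 in the other 2. PSMD3, the GC-rich mRNA shown above, had 0.297 and 0.475, 1.27 and 0.970, 0.829 and 0.889, and 0.460 and 0.465. PSMD8, at 57.2% transcript GC, had 0.808 and 0.824, 1.06 and 1.03, 1.05 and 1.11, and 0.452 and 0.465. PSMD11 moved least in the lid, between 1.03 and 1.34 in all 8 cultures.

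**Figure D2:**
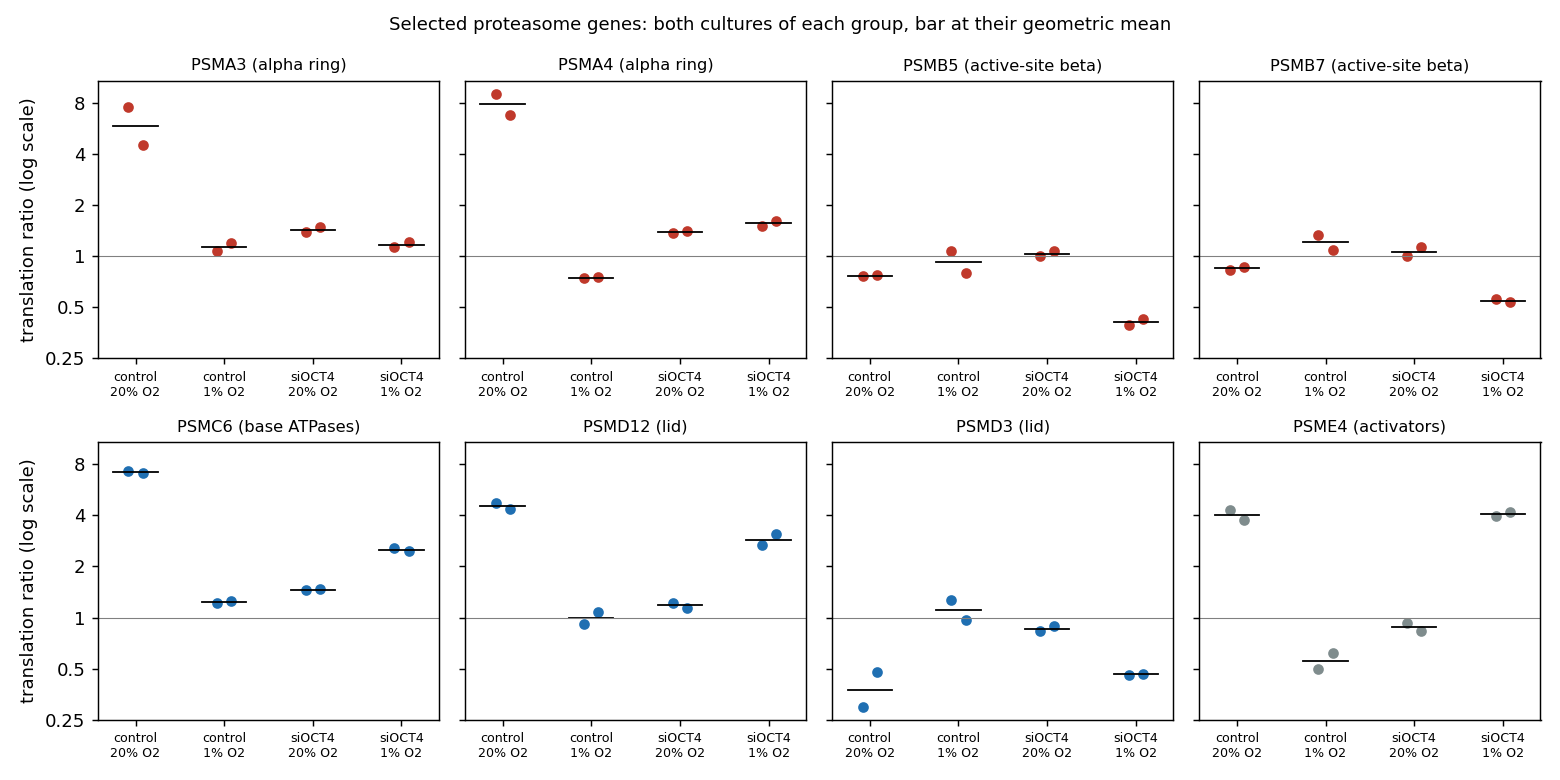
Translation ratio (log scale) of 8 proteasome genes in the 4 groups, with 1 point per culture and a bar at the geometric mean. The 8 genes were chosen after their values were seen; the alpha subunits PSMA3 and PSMA4 stayed below 2 in siOCT4 cells at 1% oxygen, while PSMC6, PSMD12 and PSME4 were above 2 there.

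Of the chaperones and activators, PSME4, the large nuclear activator also called PA200, changed most. Its ratios were 4.32 and 3.75 in control at 20%, 0.498 and 0.622 in control at 1%, 0.933 and 0.835 in siOCT4 at 20%, and 3.98 and 4.21 in siOCT4 at 1%. The base chaperone PSMD5 had 3.07 and 2.12, 0.658 and 0.648, 1.12 and 1.07, and 3.68 and 4.23. Both genes were high in siOCT4 cells at 1% oxygen and in control cells at 20%, and the differences between these groups were 0.03 ± 0.17 and 0.63 ± 0.20 (log2 ± SE, adjusted p = 0.924 and 0.0687). The base chaperone PSMD9 had 0.995 and 0.941, 1.49 and 1.26, 1.16 and 1.28, and 0.518 and 0.520, lowest in siOCT4 at 1%.

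The interferon-inducible activator subunits PSME1 and PSME2, which form the PA28 ring, stayed nearer to 1. PSME1 had 1.44 and 0.991, 0.874 and 0.886, 1.04 and 1.24, and 0.635 and 0.737. PSME2 had 1.42 and 1.18, 0.839 and 0.843, 1.15 and 1.24, and 0.742 and 0.939. PSME3, the nuclear relative of PA28, ranged from 0.793 to 1.23. PSMF1, known as PI31, which binds the core, had 0.670 and 0.800, 0.921 and 0.911, 0.967 and 1.04, and 0.859 and 0.816. These 4 genes had no ratio above 1.5 or below 0.6 in any culture.

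The core chaperones PSMG1 and PSMG2, which act as a dimer on the alpha ring, were high in control cells at 20% oxygen. PSMG1 had 3.84 and 2.64, 0.876 and 0.862, 1.56 and 1.53, and 1.72 and 1.94. PSMG2 had 4.14 and 2.62, 0.752 and 1.09, 1.36 and 1.18, and 1.34 and 1.51. PSMG3 and PSMG4, which form a second chaperone dimer, did not share this level. PSMG3 had 0.671 and 0.835, 1.13 and 0.839, 0.899 and 0.980, and 0.501 and 0.523. PSMG4 had 1.31 and 1.21, 0.558 and 0.543, 1.55 and 1.38, and 0.696 and 0.651. PSMG4 was low in both groups at 1% oxygen, and its log2 difference between oxygen levels was -1.20 ± 0.13 in control cells (adjusted p = 0.000661) and -1.12 ± 0.13 in siOCT4 cells (adjusted p = 0.00121). Values that at least 3 genes of a culture share, a mark of small read numbers, occurred in 2 cultures of PSMG4. The gene left out of the counts, PSMC3IP, had 1.54 and 2.29, 1.34 and 1.20, 1.43 and 1.56, and 1.74 and 1.93.

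The first comparison asked what OCT4 knockdown did at 20% oxygen. Of the 45 genes, 9 rose and 20 fell (limma, adjusted p under 0.05), against 19.2% of all 15864 genes tested that rose and 34.1% that fell. PSMA4 fell by 2.50 ± 0.17 on the log2 scale (SE, 2 cultures against 2, adjusted p = 0.000653), a 5.67-fold decrease. PSMC6 fell by 2.30 ± 0.12 (adjusted p = 0.000653) and PSME4 fell by 2.19 ± 0.17 (adjusted p = 0.000653). The largest rises were those of PSMD3 (1.19 ± 0.27, adjusted p = 0.0138), PSMC4 (0.91 ± 0.15, adjusted p = 0.00458) and PSMC3 (0.67 ± 0.15, adjusted p = 0.0139). The core had 3 genes that rose and 7 that fell, with a median change of 0.17, and the regulatory particle 5 and 8, with a median of -0.16, beside -0.09 over all genes. Without the inducible subunits PSMB8 and PSMB10 the core median was -0.26, so its position against the regulatory particle turned. After GC correction 3 members rose and 5 fell (background 7.2% and 7.47%), and among the 6 genes named only PSMA4 (-1.16) and PSME4 (-0.76) still passed. PSMA5, which had fallen by 0.71, then rose by 1.10. The transcript used for PSMA5 had 37.2% GC and its coding sequence 46.1%. Leaving out siOCT4 replicate 1 or 2 at 20% oxygen lowered the calls among the members and among all genes alike, most of all GC-corrected. The core medians were then 0.19 and 0.07, and the regulatory-particle medians -0.15 and -0.16. GC-corrected, they were 0.29 and 0.06 for the core and -0.02 and 0.002 for the regulatory particle. Rises were also fewer, among members and all genes, without control replicate 1 at 20% or either siOCT4 culture at 1% oxygen.

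The second comparison asked the same at 1% oxygen. Here 13 of the 45 genes rose and 16 fell, with 41.1% and 19.9% over all genes. The genes that rose most were PSME4 (2.88 ± 0.17, adjusted p = 0.000303), a 7.36-fold increase, PSMD5 (2.59 ± 0.20, adjusted p = 0.000323) and PSMD6 (1.68 ± 0.13, adjusted p = 0.000327). The genes that fell most were PSMD9 (-1.40 ± 0.14, adjusted p = 0.000589), PSMD3 (-1.26 ± 0.27, adjusted p = 0.00884) and PSMD8 (-1.19 ± 0.13, adjusted p = 0.000675). Without control replicate 1 at 1% oxygen PSMD3 no longer passed (-1.07). All 3 active-site subunits fell, with log2 changes of -1.17 ± 0.19 for PSMB5 (adjusted p = 0.00268), -0.97 ± 0.14 for PSMB6 (adjusted p = 0.00170) and -1.14 ± 0.16 for PSMB7 (adjusted p = 0.00168).

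The calls were then counted by particle, and the difference between the particles has no test here. In the core 1 gene (PSMA4, 1.06 ± 0.17) rose and 7 fell, with a median change of -0.57, or -0.38 without PSMB8 and PSMB10. In the regulatory particle 8 rose and 7 fell, with a median of 0.28, beside 0.42 over all genes. Relative to the median of all genes in each culture the medians were -0.95 for the core and -0.10 for the regulatory particle. On GC-corrected ratios 5 members rose and 27 fell (background 21.7% and 22.6%). Of the core 14 of 16 genes fell and none rose, with a median of -1.07, whereas 9 of 17 regulatory-particle genes fell and 2 rose, with a median of -0.41. The 2 core genes that did not pass were PSMB8 and PSMB10. With length corrected too, 12 core genes fell (median -0.55) and 6 regulatory-particle genes fell (median -0.22), beside 21.8% of all genes. A correction for coding GC content instead was added after seeing the data. On that scale 14 core genes fell (median -1.09) and 12 regulatory-particle genes fell (median -0.70), beside 27.2% of all genes. PSME4 (1.33), PSMD5 (1.03) and PSMD6 (0.76) still rose after GC correction, and 3 genes that had risen as deposited fell: PSMA4 (-0.43), PSMC6 (-0.73) and PSMD10 (-0.95).

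Oxygen alone was compared in control cells. At 1% against 20% oxygen 8 of the 45 genes rose and 23 fell, with 20.5% and 39.6% over all genes. PSMA4 fell by 3.39 ± 0.17 (adjusted p = 0.000152), a 10.5-fold decrease, PSME4 fell by 2.85 ± 0.17 (adjusted p = 0.000157) and PSMC6 fell by 2.54 ± 0.12 (adjusted p = 0.000152). PSMD3 (1.56 ± 0.27, adjusted p = 0.00388), PSMD4 (0.98 ± 0.22, adjusted p = 0.0105) and PSMC4 (0.73 ± 0.15, adjusted p = 0.00794) rose most. This comparison shares its control cultures at 20% oxygen with the first, and the values of the 2 are given side by side only. The core median was -0.30 and the regulatory-particle median -0.14, beside -0.31 over all genes. After GC correction 10 members rose and 11 fell (background 23% and 23.1%), so the members were called about as often as all genes. PSMA5, PSMC2 and PSMD10, which had fallen, then rose (0.78, 0.49 and 0.97). PSMC6 (-0.35) and PSMC4 (0.36) no longer passed, while PSMA4, PSME4, PSMD3 and PSMD4 did. Without control replicate 1 at 1% oxygen fewer members and fewer of all genes rose. The medians were then -0.31 for the core and -0.13 for the regulatory particle.

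In siOCT4 cells, 1% against 20% oxygen raised 11 of the 45 genes and lowered 20, with 37.4% and 21.6% over all genes. PSME4 (2.21 ± 0.17, adjusted p = 0.000683), PSMD1 (1.89 ± 0.12, adjusted p = 0.000683) and PSMD5 (1.85 ± 0.20, adjusted p = 0.000950) rose most. PSMB10 (-1.85 ± 0.34, adjusted p = 0.00494), PSMB3 (-1.41 ± 0.16, adjusted p = 0.00103) and PSMA7 (-1.37 ± 0.15, adjusted p = 0.000977) fell most. No core gene rose and 8 of 16 fell, with a median of -0.79, or -0.48 without PSMB8 and PSMB10, while 8 of 17 regulatory-particle genes rose and 7 fell, with a median of 0.30, beside 0.27 over all genes. GC-corrected, 15 of 16 core genes fell (median -1.25) and 5 of 17 regulatory-particle genes fell (median -0.33), within totals of 3 members that rose and 23 that fell (background 18.9% and 18%). PSMC6, which had risen by 0.79, then fell by 0.61. With length corrected too, 11 core genes fell (median -0.70) and 1 regulatory-particle gene fell (median -0.10), beside 15.6% of all genes. With coding GC content corrected instead, 15 core genes fell (median -1.36) and 13 regulatory-particle genes fell (median -0.60), beside 23.1% of all genes. Without siOCT4 replicate 2 at 20% oxygen fewer members and fewer of all genes fell. The medians were then -0.69 for the core and 0.31 for the regulatory particle. GC-corrected, falls also became fewer among members and all genes without replicate 1 or 2 of that group. The core medians were then -1.38 and -1.17, and the regulatory-particle medians -0.35 and -0.27.

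The interaction, the knockdown change at 1% minus that at 20% oxygen, was above 0 and passed for 19 of the 45 genes and was below 0 and passed for 16 (background 42.5% and 26.2%). After GC correction the counts were 10 and 22 (background 22.3% and 21.3%). It was 5.07 ± 0.24 for PSME4 (adjusted p = 8.04e-05), 3.56 ± 0.24 for PSMA4 (adjusted p = 9.43e-05) and -2.46 ± 0.39 for PSMD3 (adjusted p = 0.00199). For PSMC6 the interaction of 3.33 ± 0.17 became -0.26 after GC correction and no longer passed, whereas for PSME4 it was 2.09 and still passed. For PSMA2 it turned from 1.07 ± 0.19 (adjusted p = 0.00307) to -2.20 after GC correction, where it also passed. PSMA1, PSMA3, PSMA5, PSMA6, PSMC2 and PSMD10 turned from above to below 0 in the same way, 7 genes with PSMA2.

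The core and the regulatory particle were then set against each other in each culture. The difference of their median log2 ratios was 0.00 and -0.06 in control at 20%, 0.02 and -0.13 in control at 1%, 0.23 and 0.16 in siOCT4 at 20%, and -0.91 and -0.46 in siOCT4 at 1%. The 2 last cultures lay below the other 6. Without the inducible subunits PSMB8 and PSMB10 the differences were -0.54 and -0.33 in siOCT4 at 1%, and 0.36 and 0.26 in control at 20%. After GC correction they were -0.88 and -0.70 in siOCT4 at 1% and between -0.08 and 0.17 elsewhere. Core transcripts were also shorter, with a median of 1076.5 bases against 1991 for the regulatory particle and 3216.5 for all mRNAs tested, while their median GC contents were alike (49.1% and 48.7%). With GC content and length both corrected the differences were -0.70 and -0.58 in siOCT4 at 1% and between -0.22 and 0.11 elsewhere. Over the 45 genes Spearman's rho between ratio and length was 0.546 in siOCT4 at 1% and 0.273 in control at 20%. The part of length beyond these values was not tested.

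**Figure D3:**
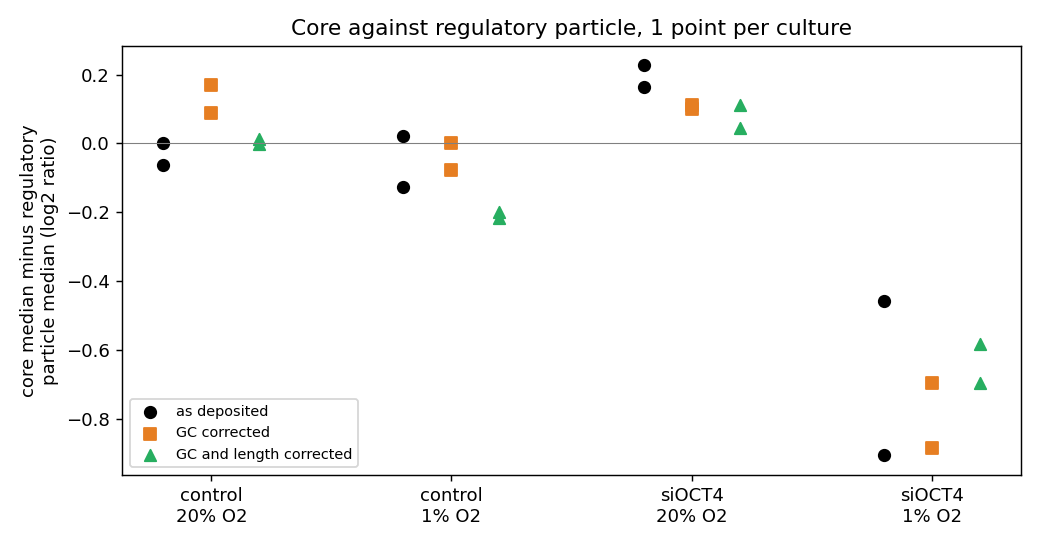
Median log2 translation ratio of 16 core genes minus that of 17 regulatory-particle genes, 1 point per culture, on ratios as deposited, corrected for GC content, and corrected for GC content and transcript length. On each of the 3 scales both siOCT4 cultures at 1% oxygen, between -0.91 and -0.46, lie below the other 6.

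A split at 50% transcript GC, chosen after the values were seen, gave the same picture by composition. The 9 core genes below 50% had a median ratio of 2.53 and 2.20 in control at 20% and of 1.00 and 1.10 in siOCT4 at 1%. The 9 regulatory-particle genes below 50% had 3.26 and 2.83 in control at 20% and 2.31 and 2.43 in siOCT4 at 1%. In siOCT4 cells at 1% the AT-rich core mRNAs were thus near 1, where the AT-rich regulatory-particle mRNAs were above 2. Above 50%, the 7 core genes had medians of 0.836 and 0.771 in control at 20% and of 0.423 and 0.504 in siOCT4 at 1%. The 8 regulatory-particle genes had 0.615 and 0.724 in control at 20% and 0.587 and 0.587 in siOCT4 at 1%. Among 21 pairs of a core and a regulatory-particle gene with GC contents within 1 percentage point, in which genes recur, the core gene was lower in 20 pairs in siOCT4 at 1%, in 11 in control at 20%, in 14 in control at 1% and in 7 in siOCT4 at 20%. The pairs were not matched for length, and in most of them the core transcript was the shorter. PSMB1 and PSMC1, for example, had 928 and 4448 bases. One of the 21 pairs is PSMA5 and PSMD12, both AT-rich and long. PSMA5 had 2.53 and 2.20 in control at 20%, where PSMD12 had 4.74 and 4.36, and 1.21 and 1.18 in siOCT4 at 1%, where PSMD12 had 2.66 and 3.10. PSMA5 was thus lower in both groups, with log2 differences of -0.94 and -1.26.

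Since siOCT4 cells at 1% and control cells at 20% oxygen were the 2 groups with a steep GC trend, they were also compared directly, a comparison added after the data were seen that changes both factors at once. Of the 45 genes 1 rose and 25 fell, with 13.5% and 13.1% over all genes. PSMA4 fell by 2.33 ± 0.17 (adjusted p = 0.00300), PSMA3 fell by 2.32 ± 0.25 (adjusted p = 0.00478) and PSMA2 fell by 2.07 ± 0.13 (adjusted p = 0.00300). The gene that rose was the base scaffold PSMD1 (0.58 ± 0.12, adjusted p = 0.0183), which no longer passed without any 1 of the 4 siOCT4 cultures or relative to the median of all genes. All 7 alpha subunits and 14 of 16 core genes fell (median -0.91), and the exceptions were PSMB2 (-0.26 ± 0.13, adjusted p = 0.182) and PSMB8 (-0.73 ± 0.72, adjusted p = 0.496). In the regulatory particle 5 of 17 fell (PSMC6, PSMD6, PSMD8, PSMD12, PSMD14), with a median of -0.14 beside 0.01 over all genes. Of the core chaperones 3 of 4 fell: PSMG1, PSMG2 and PSMG4. GC-corrected, 2 members rose and 27 fell (background 18.1% and 19%), among them 15 of 16 core genes and 5 of 17 regulatory-particle genes.

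These calls depended on the number of cultures. Without siOCT4 replicate 1 at 1% oxygen 4 of the 45 genes fell in the direct comparison, without replicate 2 of that group 8 fell, and without control replicate 1 at 20% oxygen 15 fell. The share of all genes that fell dropped as well, to 3.18%, 4.47% and 9.66%. Without siOCT4 replicate 1 or 2 at 20% oxygen, which are not compared but help to estimate the spread, 17 and 16 fell, beside 7.95% and 7.92% of all genes. The core median was -0.86 without siOCT4 replicate 1 at 1% oxygen and -0.98 without replicate 2, with 15 and 16 of 16 core genes below 0. On GC-corrected ratios the core medians without replicate 1 or 2 of that group were -1.01 and -1.14, and the regulatory-particle medians -0.23 and -0.33. With length corrected as well, 9 of 16 core genes fell (median -0.47) and 3 of 17 regulatory-particle genes fell (median -0.23), beside 16.4% of all genes, so the regulatory particle was at about the background share.

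**Figure D4:**
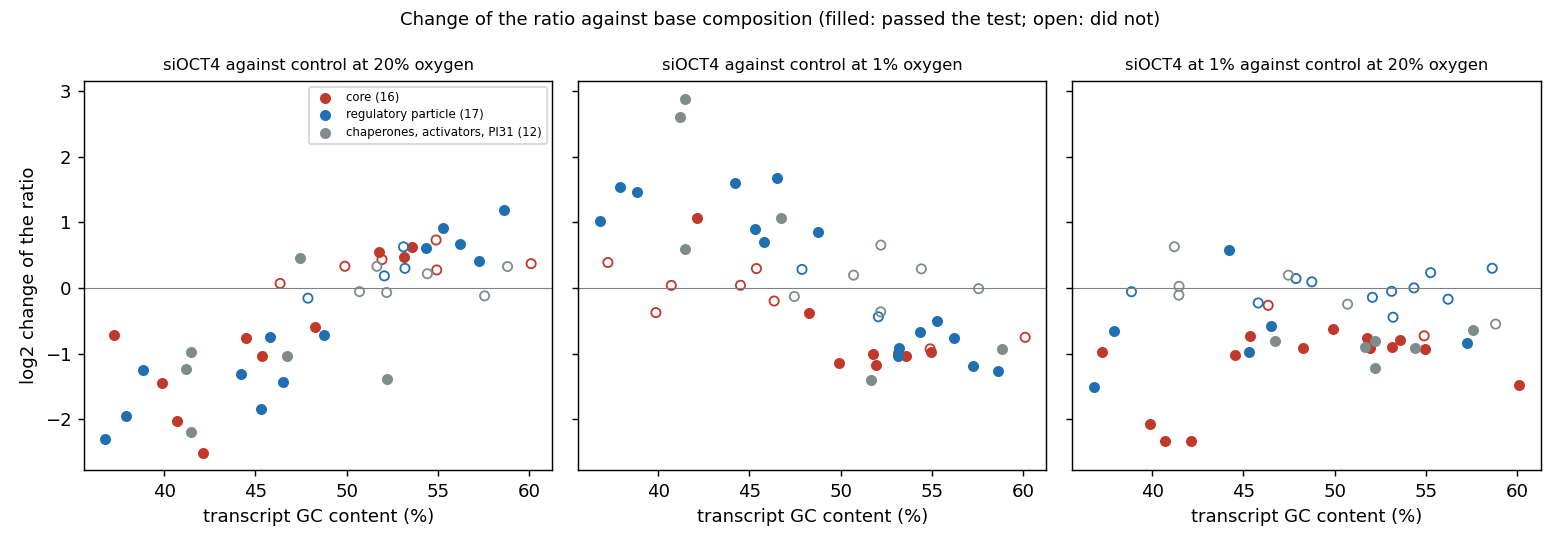
Log2 change of the translation ratio against transcript GC content for 45 proteasome genes in 3 comparisons, filled where limma's adjusted p was under 0.05 and open where it was not. The change climbs with GC content in the first panel and declines in the second, and in the third the core points lie below 0 across the range of GC content, with 14 of 16 filled.

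A list of 30 further genes of the pathway (receptors, deubiquitinases, assembly and transcription factors, ubiquitin and its activating enzymes) had a ratio in all 8 cultures for every gene. In the order of the comparisons above, siOCT4 at 20%, siOCT4 at 1%, oxygen in control, oxygen in siOCT4, interaction and the direct comparison, 9, 15, 10, 15, 15 and 3 of them rose and 15, 9, 18, 9, 12 and 6 fell. The shares of all genes that rose were 19.2%, 41.1%, 20.5%, 37.4%, 42.5% and 13.5%, and those that fell 34.1%, 19.9%, 39.6%, 21.6%, 26.2% and 13.1%. GC-corrected, 3, 7, 10, 7, 8 and 4 of the 30 genes rose and 3, 12, 6, 9, 12 and 7 fell. Of all genes, GC-corrected, 7.2%, 21.7%, 23%, 18.9%, 22.3% and 18.1% rose. The shares that fell were 7.47%, 22.6%, 23.1%, 18%, 21.3% and 19%. The core maturation factor POMP, whose mRNA is AT-rich (34.0% GC), had 3.81 and 4.28 in control at 20%, 1.39 and 1.36 in control at 1%, 1.69 and 1.51 in siOCT4 at 20%, and 1.07 and 1.28 in siOCT4 at 1%. Like the alpha subunits it stayed low in the last group, 1.79 ± 0.15 (log2) below control at 20% (adjusted p = 0.00382). The ubiquitin receptor ADRM1 had 0.460 and 0.611, 1.11 and 0.895, 0.966 and 1.07, and 0.391 and 0.444. NFE2L1, the transcription factor that induces proteasome genes when the proteasome is inhibited, had 0.481 and 0.654, 1.58 and 1.28, 0.909 and 0.870, and 0.746 and 0.662. Both were low in the 2 groups with a steep GC trend.

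The partner genes with the largest changes in single comparisons included the ubiquitin ligase UBE3A and ECPAS, which binds the proteasome. UBE3A had 6.80 and 5.66 in control at 20%, 0.678 and 0.781 in control at 1%, 1.25 and 1.13 in siOCT4 at 20%, and 4.26 and 3.72 in siOCT4 at 1%. ECPAS had 1.86 and 1.70, 0.593 and 0.760, 0.750 and 0.695, and 3.14 and 3.34. RPS27A, a fusion of ubiquitin with a ribosomal protein, had 2.12 and 2.08, 1.22 and 1.13, 1.03 and 1.06, and 0.368 and 0.383. It was 2.48 ± 0.12 (log2) lower in siOCT4 at 1% than in control at 20% (adjusted p = 0.00300). Genes that encode ubiquitin have near-identical sequence, so reads may be split between them and the values of RPS27A are uncertain.

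Counting could also touch some members. In GENCODE 29, 12 of the 45 genes have named pseudogenes, 32 in all, and how reads were shared with them is not given in the sources used here. The antisense gene PSMA3-AS1 overlaps PSMA3 and had ratios of 9.67 and 4.07 in control at 20%, 0.934 and 1.08 in control at 1%, 2.02 and 1.40 in siOCT4 at 20%, and 4.30 and 4.17 in siOCT4 at 1%, where PSMA3 had 1.13 and 1.21. Whether strand was used in the counting is not stated, so reads from the 2 cannot be told apart for certain. Of 45 members 38 had no value of the kind that small read numbers give. The 12 pluripotency markers listed for H9, such as SOX2 and LIN28A, had a ratio in all 8 cultures. So did 3 of 3 endoderm, 2 of 2 neuroectoderm, 2 of 5 trophectoderm and 3 of 5 fibroblast markers. Counting only genes without a value shared by at least 3 genes, the numbers were 0, 1, 0 and 3, beside 12 pluripotency markers. A ratio gives no level of any marker.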

How the data were processed

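RNA-seq and RNC-seq were done on 16 libraries of H9 cells, an RNA and an RNC library for each of 8 cultures. The deposited table holds 1 value per culture and gene in the unit ratio, which the authors computed as RNC over RNA. Per the submitters' processing notes, edgeR and hg19 were used; for their roles, the aligner, the counting and the library totals the sources used here give nothing. Columns marked "sO" were read as siOCT4. The members and gene lists were chosen with earlier results of these data known.

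The log2 ratio of the 15864 genes with a value in all 8 cultures was fitted with limma 3.58.1 (trend and robust settings, statmod 1.5.0, R 4.3.3) with a mean for each of the 4 groups, leaving 4 residual degrees of freedom. The two-sided p-values of each comparison were adjusted by Benjamini-Hochberg across all its genes, with 0.05 as the threshold. The fit was tested on simulated data. For GC correction, residuals of a natural spline (6 degrees of freedom) on transcript GC content were taken in each culture. This covered 15366 genes matched by symbol to GENCODE 29 (GRCh38). For each gene 1 transcript was used, the principal one where tagged, so its GC content and length depend on that choice. Other fits corrected length too or GC content of the coding sequence, used pseudocounts, centred medians, a replicate block or only the groups compared, dropped genes with ratios shared by at least 3 genes of a culture (relative tolerance 2e-06), or left out each culture. Genes given by culture were the active-site and inducible subunits, PSMD4, PSMD14, PSMF1, the PSME and PSMG genes, and per comparison the 3 members in each direction with the largest change among those called whose groups did not overlap; further members were named by class. Partners were POMP, NFE2L1, ADRM1 and some of the 2 with the largest change per direction; 1 partner that this would name is not reported here. The log2 ratios of each culture were also taken as deviations from the mean of its group. Over all genes tested, correlations of these deviations between the replicate 1 cultures of different groups ran from -0.233 to 0.0225.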

Additional observations from a re-analysis of the deposited data

Results flagged for a closer look

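The effect of siOCT4 on the ratio differed between 1% and 20% oxygen for 35 of the 45 proteasome genes, by the interaction term of the limma fit (adjusted p under 0.05, log2 scale). Among all genes tested 42.5% passed above 0 and 26.2% below 0, so many genes outside the proteasome did so too. After GC correction 7 of the 35 passed with the opposite sign (PSMA1, PSMA2, PSMA3, PSMA5, PSMA6, PSMC2, PSMD10).

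In the core the interaction was above 0 for 6 alpha subunits, at 3.56 for PSMA4, 2.07 for PSMA3, 1.34 for PSMA1, 1.10 for PSMA5, 1.07 for PSMA2 and 0.80 for PSMA6. It was below 0 for PSMA7 (-1.46) and for 5 beta subunits: -1.65 for PSMB3, -1.61 for PSMB5, -1.54 for PSMB4, -1.47 for PSMB7 and -1.24 for PSMB6. In the regulatory particle it was 3.48 for PSMD12, 3.33 for PSMC6, 3.10 for PSMD6, 2.91 for PSMD1, 2.73 for PSMD14, 2.70 for PSMC2, 1.57 for PSMC1 and 1.45 for PSMD7. It was -2.46 for PSMD3, -1.66 for PSMD4, -1.60 for PSMD8, -1.43 for PSMC3, -1.41 for PSMC4, -1.28 for PSMD2 and -1.21 for PSMD13.

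Of the other genes, PSME4 had 5.07, the base chaperones PSMD5, PSMD10 and PSMD9 had 3.82, 1.56 and -1.73, the core chaperones PSMG1, PSMG2 and PSMG3 had 2.11, 2.03 and -1.25, and PSMF1 had -0.59.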

How the results depend on the processing

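Of 28 single-gene changes named by rule, the largest of their comparisons, none changed direction under any setting run. With GC correction 6 of the 28 no longer passed, and with GC and length corrected 7. A change that still passed could be smaller, as for PSMA4 with siOCT4 at 20% (-2.50 as deposited, -1.16 GC-corrected). Some also no longer passed when 1 culture was left out. The interaction, where 7 members turned sign after GC correction and passed on both scales, was not among the 28. The comparisons are given in this order: siOCT4 at 20%, siOCT4 at 1%, oxygen in control, oxygen in siOCT4, interaction, and siOCT4 at 1% against control at 20%. As deposited, 9, 13, 8, 11, 19 and 1 members rose, 20, 16, 23, 20, 16 and 25 fell, and core minus regulatory particle median changes were 0.33, -0.85, -0.16, -1.09, -1.13 and -0.77.

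With GC correction the members that rose were 3, 5, 10, 3, 10 and 2, those that fell 5, 27, 11, 23, 22 and 27, and the median differences for siOCT4 at 1% and the interaction -0.67 and -0.66. With GC and length corrected, 4, 4, 4, 10 and 3 rose (oxygen in control apart), and 6, 9 and 14 fell for siOCT4 at 20%, oxygen in control and direct. In the same order, of all 15366 genes 1182, 2921, 2119, 3235 and 2027 rose, and 8.3%, 23.7% and 16.4% fell. The median differences were -0.33, -0.59, -0.40 and -0.24 for siOCT4 at 1%, oxygen in siOCT4, interaction and direct. With coding GC corrected, chosen after seeing the data, 3, 15, 3, 3 and 2 rose (siOCT4 at 20% apart) and 3, 33, 7, 35 and 30 fell (direct apart). In the same order, of all 14280 genes 3516, 3856, 3200, 3727 and 2811 rose, and 13.4%, 27.2%, 24.9%, 23.1% and 27.8% fell. The differences were -0.0175, -0.39, -0.43, -0.76 and -0.59 (direct apart). The difference for siOCT4 at 20% so changed sign, as it did without genes with shared ratios (-0.11). There those for siOCT4 at 1%, oxygen in siOCT4 and interaction were -0.66, -0.78 and -0.47. In the direct comparison 2 members then rose, beside 1878 of 8087 genes. The cause of these shifts was not tested.

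The labels do not state whether same-numbered cultures were handled together, and with 2 cultures per group the correlations above cannot settle it. With a replicate block 4 members rose for siOCT4 at 20% and 5 for oxygen in control, beside 2200 and 2870 of 15864 genes. With the replicate block and GC correction 0, 4, 2, 7 and 2 rose (oxygen in control apart), and 2 and 9 fell for siOCT4 at 20% and oxygen in control. In the same order, of all 15366 genes 259, 2966, 2462, 3007 and 2359 rose, and 1.33% and 20.7% fell. With only the groups compared, 2 members rose for siOCT4 at 20%, 2 for oxygen in control and 0 in the direct comparison, where 5 fell. Of all 15864 genes 1572, 2104 and 769 then rose, and 4.2% fell in the direct comparison. Fewer samples estimate the spread in these fits. Centred medians left 0 rises in the direct comparison, beside 1518 among all genes.

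Leaving out 1 culture gave 1 to 8 rises and 14 to 20 falls for siOCT4 at 20%, 4 to 7 rises for oxygen in control, 12 to 20 falls for oxygen in siOCT4, and 0 to 2 rises and 4 to 23 falls in the direct comparison. The median differences ranged from -1.01 to -0.58 for siOCT4 at 1%, from -1.17 to -0.79 for oxygen in siOCT4 and from -1.21 to -0.77 for the interaction. Depth is unknown, so what it limits could not be given.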
